A study of Mus musculus with 80 samples.

Results

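The developmental genes Igf2bp1, Hmga2, Nes and Cdh2 were followed through the life of mouse skeletal muscle on a pair of spotted cDNA filters. Every clone whose platform symbol is 1 of these 4 genes was taken, which gave 11 of the 16896 clones. Igf2bp1 has 5 clones (2029, 3130 and 3901 on filter A, 13153 and 16332 on filter B), Hmga2 has 3 (7622 on filter A, 9910 and 11822 on filter B), Nes has 1 (7446 on filter A) and Cdh2 has 2 (10244 and 14047 on filter B). No clone with several symbols holds any of them (0 clones).

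The muscle came from 40 C57BL/6 mice, 20 female and 20 male, all of 1 strain and all fed regular chow without restriction, with no genotype or agent that sets a group apart. Each mouse gave labelled cDNA to 1 array of filter A and 1 array of filter B, 80 arrays in all. By age there were 5 mice of 17-21 d (3 female, 2 male), 5 of 33-44 d (2 female, 3 male), and 10 each of 169-194 d, 476-499 d and 704-743 d, with 5 of each sex. Values are scores scaled so that the 8448 clones of an array average 0 with a standard deviation (SD) of 1. A difference is therefore in array SDs and cannot be turned into a fold change. The muscle was homogenised whole, so fewer cells of a type and less RNA per cell cannot be told apart.

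Igf2bp1 encodes an RNA-binding protein that holds and protects selected transcripts in embryonic cells. Hmga2 encodes a chromatin protein that bends AT-rich DNA and is high in dividing embryonic and mesenchymal cells. Nes encodes nestin, an intermediate filament protein of progenitor cells. In muscle it is found in satellite cells, in young fibres and at the nerve junctions of fibres. Cdh2 encodes N-cadherin, a calcium-dependent adhesion protein through which myoblasts and satellite cells hold to each other and to fibres. Transcripts of Hmga2 and Igf2bp1 are well known targets of the let-7 microRNAs, which accumulate as tissues mature and are opposed by the Lin28 proteins. let-7 itself was not analysed here, and the sequences below are shown only to name this shared regulator. They are RefSeq mature sequences (GRCm38.p6), with the seed, bases 2 to 8, in capitals.
mmu-let-7a-5p, minus strand of chr13:48538239-48538260: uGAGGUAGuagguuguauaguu
mmu-let-7b-5p, plus strand of chr15:85707325-85707346: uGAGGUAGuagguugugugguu
mmu-miR-98-5p, plus strand of chrX:151913229-151913250: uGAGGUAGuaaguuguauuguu
With the entries of a single chromosome left out, 11 mature names in the RefSeq table have this seed.

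Clones of 1 gene sat at different places on their filter. Averaged over the 40 mice, the Igf2bp1 clones scored 2.29 (2029), 0.67 (3130), -0.45 (3901), 1.76 (13153) and 0.96 (16332), and the SD over mice lay between 0.0973 (13153) and 0.241 (2029). The Hmga2 clones scored near the middle, at -0.001 (7622), 0.23 (9910) and -0.12 (11822). Nes 7446 scored -0.59, at percentile 29.7 of its filter. Cdh2 scored 1.21 (10244) and 2.11 (14047), at percentiles 88.7 and 98.5. A score reflects the spot as well as the transcript, so these levels rank no gene or clone against another.

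Between 17-21 d and 169-194 d, 4 of the 11 clones passed the test and 7 did not. Igf2bp1 2029, Hmga2 9910 and Cdh2 10244 rose, and Hmga2 7622 fell, so that the clones called for Hmga2 went opposite ways. In this fit no gene had all of its clones called, and Nes was not called. With median and MAD scaling 7 of the 11 members were called, beside 5935 of all 16896 clones. Both Cdh2 clones then rose (10244 by 0.22, limma adjusted p = 0.0219, and 14047 by 0.20, adjusted p = 0.0323). Igf2bp1 13153 rose by 0.22 (adjusted p = 0.0374) and 16332 by 0.20 (adjusted p = 0.0259) under that scaling. Without that scaling 36.7% of all clones were called in this comparison, 17.3% as higher and 19.3% as lower. The members' share of 4 in 11 is near that background. Of the called clones 47.3% were higher, and 59.3% under median and MAD scaling. The calls came from limma's moderated test with p adjusted by the Benjamini-Hochberg method over all 16896 clones and a threshold of 0.05. At unadjusted p under 0.05 the same 4 member clones were counted, against 50.2% of all clones.

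Igf2bp1 clone 2029 scored 1.87, 2.03 and 2.11 in the females of 17-21 d and 2.01 and 2.02 in the males. At 33-44 d it scored 2.14 and 2.22 in the females and 2.14, 1.83 and 2.59 in the males. The lowest, median and highest scores were 2.20, 2.39 and 2.60 at 169-194 d, 1.54, 2.46 and 2.68 at 476-499 d, and 2.12, 2.29 and 2.48 at 704-743 d. All 5 mice of 17-21 d thus lay below all 10 mice of 169-194 d. The difference was 0.38 (SE 0.11, 95% interval 0.15 to 0.61, limma adjusted p = 0.0144). Ordered by mean, the ages ran from 2.01 ± 0.087 (SD, n = 5) at 17-21 d through 2.18 ± 0.27 (n = 5) at 33-44 d, 2.30 ± 0.13 (n = 10) at 704-743 d and 2.37 ± 0.32 (n = 10) at 476-499 d to 2.39 ± 0.16 (n = 10) at 169-194 d, and neighbours in that order overlapped.

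The other Igf2bp1 clones did not pass the test in that comparison. Clone 16332 differed by 0.12 (95% interval -0.02 to 0.26, limma adjusted p = 0.141) and clone 13153 by 0.11 (-0.01 to 0.22, adjusted p = 0.119), and in both the 10 older mice overlapped the 5 young ones. Clone 3130 differed by 0.05 (-0.14 to 0.23, adjusted p = 0.689). Clone 3901 differed by -0.09 (-0.29 to 0.11, adjusted p = 0.46). Thus 4 of the 5 Igf2bp1 estimates were above 0 and 1 was below it. From 17-21 d to 704-743 d the age means of clone 13153 stayed between 1.67 ± 0.12 (SD, n = 5) and 1.79 ± 0.13 (n = 10), and those of clone 16332 between 0.87 ± 0.096 (n = 5) and 1.00 ± 0.064 (n = 10).

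**Figure D1:**
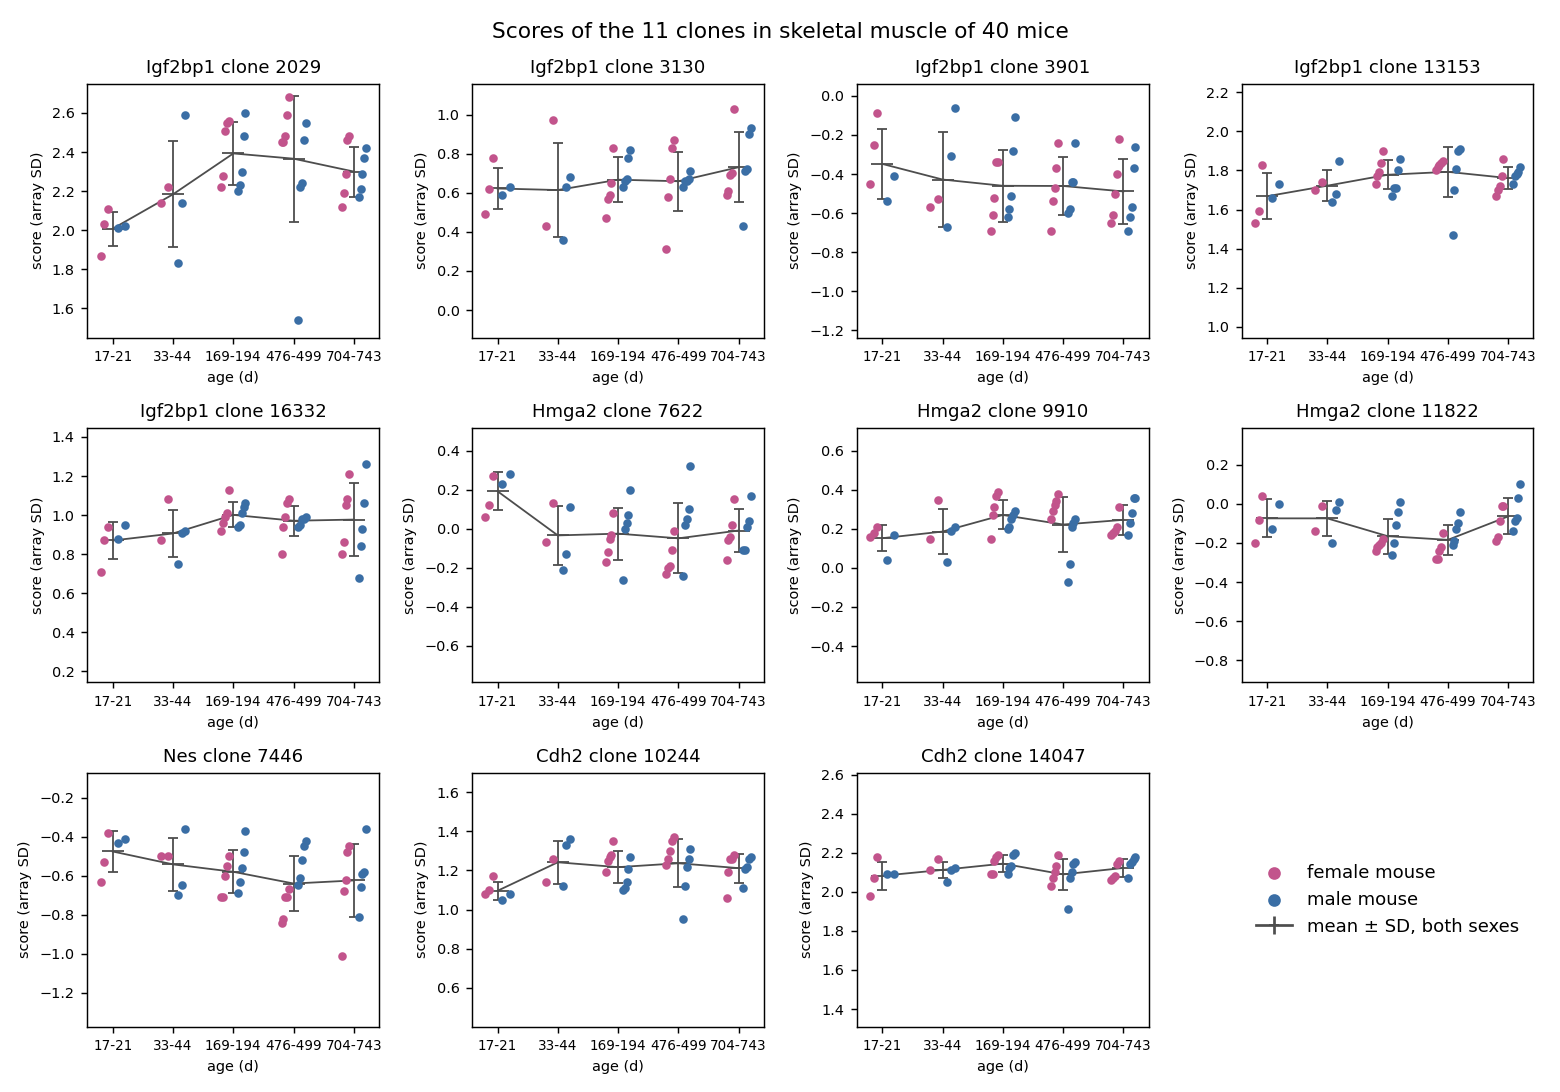
Each panel plots 1 clone, with the score in array SDs on the vertical axis (all panels span the same range) and the 5 age bins on the horizontal axis. Each point is a mouse, in pink for females and blue for males, and the grey bars are the mean ± SD of both sexes. Igf2bp1 2029 is lowest at 17-21 d (mean 2.01) and Hmga2 7622 highest there (mean 0.19), and 1 male of 476-499 d stands apart at 1.54 on Igf2bp1 2029.

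Hmga2 clone 7622 was highest in the youngest mice. It scored 0.06, 0.12 and 0.27 in the females of 17-21 d and 0.23 and 0.28 in the males. The mice of 33-44 d scored -0.07 and 0.13 (females) and -0.21, 0.11 and -0.13 (males). At 169-194 d the lowest, median and highest scores were -0.26, -0.015 and 0.20, at 476-499 d -0.24, -0.06 and 0.32, and at 704-743 d -0.16, -0.015 and 0.17, so each older class overlapped the youngest. From 17-21 d to 169-194 d it fell by 0.23 (SE 0.075, limma adjusted p = 0.0211). Between 17-21 d and 33-44 d the estimate was also -0.23 (SE 0.087, unadjusted p = 0.0137 and limma adjusted p = 0.263), which does not pass the threshold, and from 33-44 d to 169-194 d the estimate was -0.002.

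Hmga2 clone 9910 went the other way. In the mice of 17-21 d it scored 0.18, 0.16 and 0.21 (females) and 0.04 and 0.17 (males), and in those of 33-44 d 0.35 and 0.15 (females) and 0.19, 0.03 and 0.21 (males). At 169-194 d the scores ran from 0.15 through a median of 0.27 to 0.39, at 476-499 d from -0.07 through 0.25 to 0.38, and at 704-743 d from 0.17 through 0.22 to 0.36. The rise from 17-21 d to 169-194 d was 0.13 (SE 0.05, limma adjusted p = 0.0469), just inside the threshold, and the groups overlapped. With additive terms for sex and age it was not called (adjusted p = 0.0577).

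The third Hmga2 clone, 11822, had its higher means at both ends of the age range. Its age means were -0.074 ± 0.097 (SD, n = 5) at 17-21 d, -0.074 ± 0.091 (n = 5) at 33-44 d, -0.165 ± 0.089 (n = 10) at 169-194 d, -0.184 ± 0.078 (n = 10) at 476-499 d and -0.064 ± 0.092 (n = 10) at 704-743 d. The oldest mice differed from those of 476-499 d by 0.12 (SE 0.04, unadjusted p = 0.00522) and from those of 169-194 d by 0.10 (SE 0.04, unadjusted p = 0.0169). After adjustment over all clones in limma neither passed (adjusted p = 0.527 and 0.716), also with the list-number stretch as a block (adjusted p = 0.476 and 0.654). Within the stretches the oldest mice were higher in 5 of 5 in both comparisons. That count splits the same mice as the tests above and has no share over all clones beside it, so it adds no separate support. This clone is the 1 member at unadjusted p under 0.05 in each of these comparisons.

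The Nes clone, 7446, did not pass the test in any comparison. The mice of 17-21 d scored -0.38, -0.63 and -0.53 (females) and -0.43 and -0.41 (males), and those of 33-44 d -0.50 and -0.50 (females) and -0.65, -0.36 and -0.70 (males). Its scores ran from -0.71 through a median of -0.58 to -0.37 at 169-194 d, from -0.84 through -0.66 to -0.42 at 476-499 d and from -1.01 through -0.605 to -0.36 at 704-743 d. The age means were -0.48, -0.54, -0.58, -0.64 and -0.62 from the youngest to the oldest class, and every pair of neighbouring classes overlapped. The difference between 169-194 d and 17-21 d was -0.11 (95% interval -0.27 to 0.04, limma adjusted p = 0.224).

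Of the Cdh2 clones, 10244 rose between 17-21 d and 169-194 d and 14047 did not pass the test. Clone 10244 scored 1.17, 1.10 and 1.08 in the females of 17-21 d and 1.08 and 1.05 in the males. At 33-44 d it scored 1.14 and 1.26 in the females and 1.33, 1.12 and 1.36 in the males. At 169-194 d its scores ran from 1.10 through a median of 1.23 to 1.35, at 476-499 d from 0.95 through 1.26 to 1.37 and at 704-743 d from 1.06 through 1.24 to 1.28. Its rise from 17-21 d to 169-194 d was 0.13 (SE 0.05, limma adjusted p = 0.0479), and the groups overlapped by the lowest older mice. Clone 14047 differed by 0.06 (95% interval -0.02 to 0.14, adjusted p = 0.208). Over the 40 mice it stayed between 1.91 and 2.20, with the smallest SD of the 11 clones, 0.0602.

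The count of 4 changed with single mice. With either male of 17-21 d left out, which leaves 1 male in that class, no member was called, while 1991 clones (without replicate 1) or 19 clones (without replicate 2) were called over the filters. Igf2bp1 2029 lost its call in these 2 of 40 such fits, Hmga2 7622 in 3, the third being without female 17-21 d replicate 3, Hmga2 9910 in 15 and Cdh2 10244 in 21, with highest adjusted p of 0.0612, 0.0885, 0.232 and 0.143 in that order. Leaving out any 1 of 11 further mice gave 2 calls. At 17-21 d these mice were replicates 2 and 3 of the females. At 169-194 d they were replicates 1, 3 and 4 of the females and 2, 3 and 5 of the males. The rest were female 476-499 d replicate 1, female 704-743 d replicate 1 and male 704-743 d replicate 4. Without female 17-21 d replicate 3 the calls were Igf2bp1 2029 and Igf2bp1 13153, and 13153 was not called with all mice. The count over all clones is not given for these 11 fits, so their 2 calls stand without a background share. Within the 4 stretches of list numbers that hold both ages, Igf2bp1 2029, Hmga2 9910 and Cdh2 10244 were higher at 169-194 d in 4 of 4, and Hmga2 7622 was lower in 3 of 4. This did not set the called clones apart: Igf2bp1 13153 and 16332 and Cdh2 14047 were higher in 4 of 4, and Igf2bp1 3901 and Hmga2 11822 lower in 4 of 4.

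No member was called in the other comparisons by limma. In 33-44 d against 17-21 d, 0 members and 0.0237% of all clones were called, and at unadjusted p under 0.05 the counts were 2 members (Hmga2 7622 and Cdh2 10244) and 18.1% of clones. In 169-194 d against 33-44 d, 0 members and 0.00592% of clones were called, and 0 members and 3.86% of clones at the unadjusted level. From 169-194 d to 476-499 d, 0 members and 0% of clones were called, with 0 members and 0.752% unadjusted. In that step 9 of the 11 estimates were below 0 (median -0.024), against 48.1% of all clones, and the widest was -0.06. In 704-743 d against 476-499 d and against 169-194 d, 0 members and 0% of clones were called, with 1 member each and 8.35% and 5.08% of clones unadjusted.

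Sex made no called difference. Between females and males over all ages 0 members and 0% of clones passed, and unadjusted 1 member and 2.69% of clones. That member was Hmga2 9910, higher in females by 0.07 (SE 0.031, unadjusted p = 0.0255, limma adjusted p = 0.823). The test of a sex difference in the age profile called 0 members and 0% of clones, with 0 members and 3.91% of clones unadjusted.

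The test of any difference among the 5 age bins called 0 members and 0.9% of all clones. Unadjusted, 3 members (Igf2bp1 2029, Hmga2 7622 and Hmga2 11822) and 33% of clones were under 0.05, and the lowest limma adjusted p of a member was 0.0848, for Igf2bp1 2029. With the list-number stretch as a block these 3 clones were called (limma adjusted p = 0.0464, 0.0409 and 0.0488 in that order), beside 21.2% of all clones, and with array weights 5 members were called, beside 47.9%. Without male 476-499 d replicate 5 the count became 4 members beside 32.4% of all clones, and without male 33-44 d replicate 3 it became 2 beside 15.4%.

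Clones of 1 gene were set against each other within mice, in 14 pairs and 6 age comparisons (84 permutation tests on the within-mouse difference, adjusted together). None passed after adjustment (0 of 84), and 6 of the 14 pairs had unadjusted p under 0.05 in 169-194 d against 17-21 d. Hmga2 7622 and Hmga2 9910 differed in their change by -0.336 (exact two-sided permutation p = 0.0040, adjusted p = 0.121). Igf2bp1 2029 changed by 0.275 more than Igf2bp1 13153 (exact permutation p = 0.0020, adjusted p = 0.121). The Cdh2 clones differed in change by 0.059 (exact permutation p = 0.268, adjusted p = 0.799). Without male 169-194 d replicate 1, 4 of the 84 passed.

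Clones of 1 gene shared no common direction over the 40 mice. Of the 14 pairs of 1 gene, 7 had a positive and 7 a negative r, with a median of -0.051, and the median size of r was 0.304 against 0.392 in the 41 pairs of different genes. The highest pair was Igf2bp1 2029 with 13153 (Pearson r = 0.742 and Spearman rho = 0.63, both with a permutation p of 1e-05, the lowest possible with this number of draws, and adjusted p = 0.00014), and r was 0.634 without the 2 farthest mice and 0.519 to 0.924 within the stretches. Igf2bp1 3130 and 16332 had r = 0.46 (rho = 0.454, permutation p = 0.00317 and 0.00392, adjusted p = 0.0148 and 0.0183), and 0.392 without the 2 farthest mice. Hmga2 7622 and 9910 were opposed, at r = -0.588 (rho = -0.581, permutation p = 3e-05 and 0.00016, adjusted p = 0.00021 and 0.00112), with r = -0.509 without the 2 farthest mice and between -0.761 and -0.415 within the stretches. Igf2bp1 3901 was opposed to 2029 (r = -0.386, permutation adjusted p = 0.0363) and to 16332 (r = -0.416, permutation adjusted p = 0.0248). Without the 2 farthest mice the latter was -0.254 (permutation p = 0.124). The Cdh2 pair had r = 0.298 (rho = 0.111, permutation p = 0.0627 and 0.496), and 0.0617 without the 2 farthest mice. After the leading component of the partner filter was taken out, r became 0.262 for Igf2bp1 2029 with 13153 and -0.1 for Hmga2 7622 with 9910. Igf2bp1 3130 with 16332 then stood at 0.494, and Hmga2 7622 with 11822 turned from 0.331 to -0.323.

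**Figure D2:**
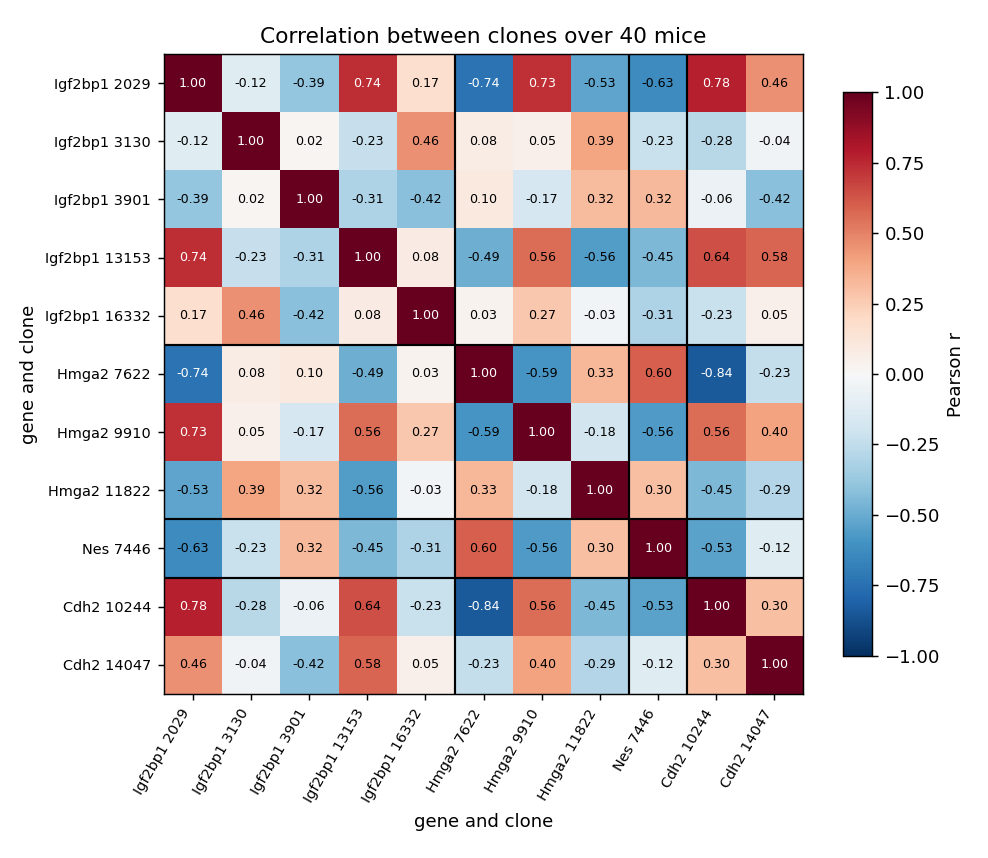
The map gives Pearson r between each pair of the 11 clones over the 40 mice, from -1 in blue to 1 in red, with lines between genes. Cells inside a gene's square show no common sign, and pairs of different genes reach 0.78 and -0.84.

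The 4 called clones, and some that were not called, moved with the leading principal component of the filter that does not hold them, which took 43.6% (filter A) and 36.6% (filter B) of the variance. On filter A it averaged -14.7 ± 1.41 (SD, n = 5) at 17-21 d and 4.77 ± 10.7 (n = 10) at 169-194 d. Pearson r over the 40 mice was 0.913 for Igf2bp1 2029, -0.827 for Hmga2 7622, 0.804 for Cdh2 10244 and 0.659 for Hmga2 9910, each with a permutation p of 2e-05 or less (adjusted over the 11 clones 4.4e-05 or less). Spearman rho was 0.936, -0.781, 0.779 and 0.677 in that order. Without the 2 farthest mice r was 0.894, -0.786, 0.773 and 0.617, and within the stretches it kept its sign in 5 of 5 for each. The median size of r over all 16896 clones was 0.57. Among the clones not called, Igf2bp1 13153 (0.663), Hmga2 11822 (-0.597) and Nes 7446 (-0.55) were near or beyond the r of Hmga2 9910, each with a permutation adjusted p of 0.000377 or less. Cdh2 14047 had r = 0.388 and Igf2bp1 3901 r = -0.276. Igf2bp1 3130 and 16332, the pair that followed each other, had r of -0.187 and 0.159 with it.

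**Figure D3:**
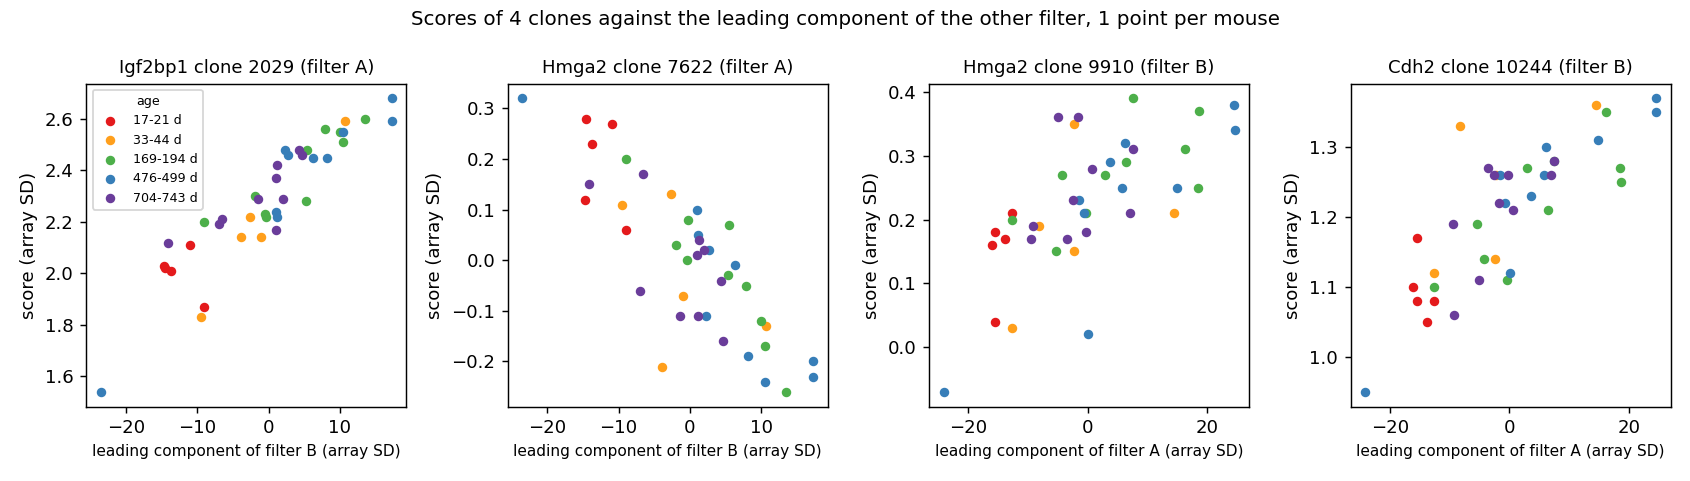
Each panel plots the score of a called clone (vertical axis, array SD) against the leading component of the other filter (horizontal axis), with 1 point per mouse coloured by age. The sign of each component was set so that the mice of 17-21 d average low. These 5 mice sit near 1 end of it. A mouse of 476-499 d lies lowest of all, at -24.1 on filter A and -23.5 on filter B.

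With that component as a covariate, 0 of the 11 clones and 9 of all clones were called in 169-194 d against 17-21 d. The estimates became -0.035 for Igf2bp1 2029, 0.00065 for Hmga2 7622, 0.023 for Hmga2 9910 and -0.0048 for Cdh2 10244, with adjusted p of 1.0 in limma for each. Since the component itself differed between these ages, what it shares with age cannot be told apart from age here. Under quantile normalization Igf2bp1 2029 differed by 0.095 (limma adjusted p = 0.387) and Cdh2 10244 by 0.093 (adjusted p = 0.13), and neither was called.

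Distance in clone number also went with the scores. Among distances in clone number from 1 to 600, pairs of clones 22 numbers apart had the highest mean r over mice (filter A 0.471, filter B 0.47), where the median over distances was 0.0514 and 0.0653. The next highest was at a distance of 528. Most of the 11 clones had a high r at that distance. With the clones 22 numbers before and after it, Hmga2 7622 had a mean r of 0.92, Igf2bp1 2029 of 0.888, Igf2bp1 16332 of 0.87, Nes 7446 of 0.795, Igf2bp1 3130 of 0.755, Hmga2 9910 of 0.673, Cdh2 10244 of 0.544 and Igf2bp1 13153 of 0.492. Cdh2 14047 (0.31) and Hmga2 11822 (0.259) were lower, and Igf2bp1 3901 (-0.0018) was below the median over distances of its filter. In 7 of the 10 clones that have a partner clone of the same gene, this mean was above the r with every such partner. The margin was narrow for Cdh2 14047 (0.310 against 0.298). The neighbours share the clone's filter, while partners can lie on the other filter, as both partners of Hmga2 7622 do. The 2 kinds of r are thus not fully alike. The clones share library, array and mouse, and the part of position in the results was not tested beyond the fit below.

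**Figure D4:**
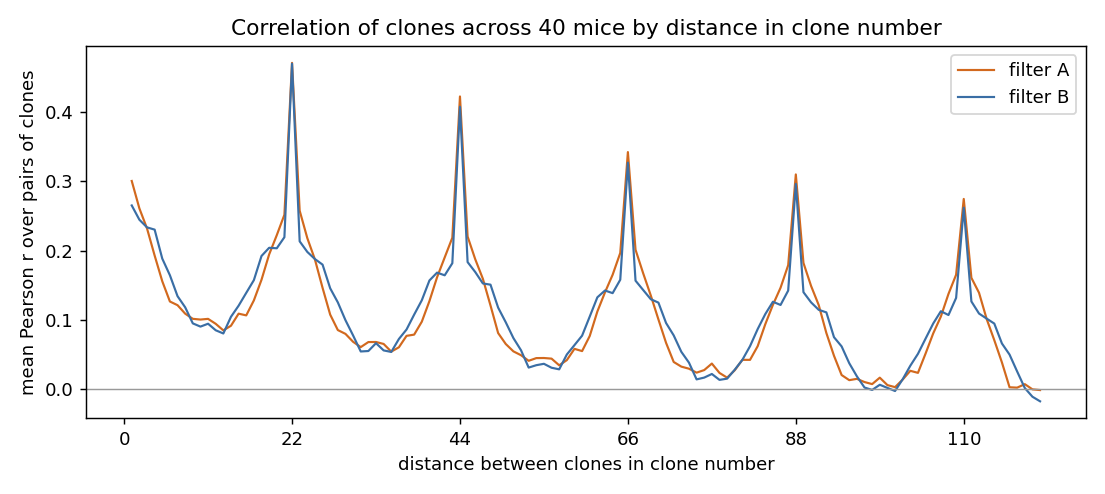
The mean Pearson r over all pairs of clones (vertical axis) is plotted against their distance in clone number (horizontal axis) for filter A and filter B. Both lines peak at each multiple of 22, reaching 0.47 at the first peak.

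When the mean of the clones 22 and 44 numbers away was subtracted from each clone, a fit chosen after seeing the data, 4 members and 25.2% of all clones were called in 169-194 d against 17-21 d, but only 1 of the 4 was called in both fits. Igf2bp1 2029 kept its rise, at 0.22 (SE 0.061, limma adjusted p = 0.0144). Hmga2 7622 was at 0.007 (adjusted p = 0.878), Hmga2 9910 at 0.05 (adjusted p = 0.351) and Cdh2 10244 at 0.039 (adjusted p = 0.28). The 3 clones called in that fit alone were Igf2bp1 16332 at 0.088 (adjusted p = 0.0429), Nes 7446 at 0.16 (adjusted p = 0.0438) and Cdh2 14047 at -0.14 (adjusted p = 0.029), the last 2 with the opposite sign to the deposited scores. For Hmga2 the opposed directions of 7622 and 9910 were thus not seen in this fit. The third Hmga2 clone, 11822, was at -0.086 (limma adjusted p = 0.0553), so the Hmga2 estimates still differed in sign.

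**Figure D5:**
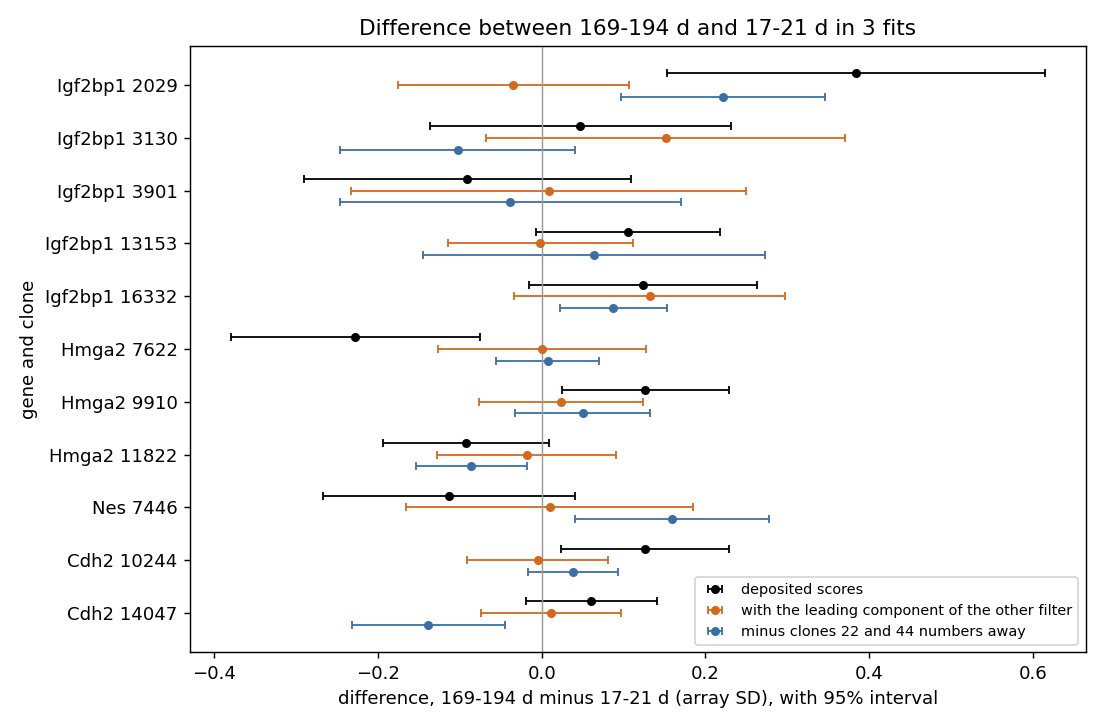
For each clone the difference between 169-194 d and 17-21 d (horizontal axis, array SD) is shown with its 95% interval in 3 fits, on the deposited scores (black), with the partner filter's leading component (orange) and after subtraction of clones 22 and 44 numbers away (blue). Igf2bp1 2029 is above 0 in the black and blue fits (0.38 and 0.22) and at -0.035 in the orange one.

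The clones most like each member, taken as the 3 clones with 1 symbol on its filter with the highest r over the 40 mice, are given as a description. Igf2bp1 2029 went with Trh (0.98), Rest (0.979) and Plxnb2 (0.977), and Igf2bp1 3130 with Ppp4r1 (0.837), Cald1 (0.829) and Calr (0.815). Igf2bp1 3901 went with Tet2 (0.869), Gpr137b (0.866) and Tfeb (0.817), 13153 with Fn1 (0.917), Tpd52l2 (0.887) and Glg1 (0.873), and 16332 with Dync1i2 (0.921), Gpld1 (0.918) and Stox2 (0.868). Hmga2 7622 went with Mpv17 (0.927), Tmem181c-ps (0.921) and Aatf (0.918), 9910 with Rpl23 (0.816), Emd (0.81) and Ciao3 (0.801), and 11822 with Klhl13 (0.814), Rbbp4 (0.771) and Trappc1 (0.77). Nes 7446 went with Egln1 (0.848), Npr3 (0.842) and Brwd3 (0.828). Cdh2 10244 went with Ubash3b (0.912), Srcap (0.911) and B4galt1 (0.907), and 14047 with Psmc3ip (0.844), Wnt4 (0.768) and Fbxw7 (0.759). Of these 33 clones, 13 lie at a multiple of 22 numbers from their member (39.4%), where 4.55% of clone numbers do. No same-gene clone ranked higher than 1707 among the 8447 others of its filter.

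Other genes of the same pathways were read from fixed lists in 169-194 d against 17-21 d, where 36.7% of all clones were called (17.3% higher, 19.3% lower). In each list of more than 1 clone the called share was at or below that background, so the counts say nothing particular of the list. Of 24 clones of 10 genes in the let-7, Lin28 and HMG list, 1 rose, 5 fell and 18 did not pass (median 0.022, against 0.0107 over all clones). H19, the imprinted noncoding RNA that is high in fetal muscle, fell on clones 15040 by 0.45 (limma adjusted p = 7.7e-07) and 15084 by 0.34 (adjusted p = 3.7e-05). Its other 5 clones lay between -0.07 and 0.14 and did not pass. Clones 15040 and 15084 lie 44 numbers apart on filter B, a distance at which all pairs of clones had a mean r of 0.408. Their falls therefore cannot be counted as separate evidence on H19, and the part of position in them was not tested. Myc, a growth-promoting transcription factor, fell by 0.30 on clone 10495 (adjusted p = 0.0138), and its clone 7301 was at -0.11 (adjusted p = 0.191). The chromatin protein gene Hmgn1 rose by 0.13 (adjusted p = 0.0239). Dicer1, which cuts microRNA precursors, fell by 0.21 on clone 1307 (adjusted p = 0.0263), and its clone 14694 was at 0.07 (adjusted p = 0.367).

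Of 6 clones of 6 myogenic and satellite cell genes 1 rose, 1 fell and 4 did not pass (median 0.0403). The chemokine receptor gene Cxcr4 rose by 0.58 (limma adjusted p = 0.0109), and Heyl, a Notch target gene, fell by 0.29 (adjusted p = 0.0173). The only measured gene of the embryonic contractile list, Acta2, smooth muscle actin, fell by 0.82 (adjusted p = 0.0134). Among 17 intermediate filament and linker clones of 10 genes, 5 rose, 1 fell and 11 did not pass (median 0.0822). The keratin gene Krt8 rose by 0.38 on clone 3349 (adjusted p = 0.0143) and by 0.33 on clone 4206 (adjusted p = 0.0333), and its clone 4760 was at -0.01 (adjusted p = 0.958). Krt18, its keratin partner, rose by 0.16 on clone 11768 (adjusted p = 0.0249), and its clones 72 and 6030 were at 0.15 and 0.08 (adjusted p = 0.156 and 0.179). Lmnb1, a nuclear lamin, rose by 0.30 on clone 8296 (adjusted p = 0.0277), and its clone 4360 was at 0.01 (adjusted p = 0.97). Dst, a cytoskeletal linker, fell by 0.31 on clone 7362 (adjusted p = 0.0373), and its clone 7084 was at 0.07 (adjusted p = 0.459). Of 14 cadherin and catenin clones of 8 genes, 2 rose, 1 fell and 11 did not pass (median 0.0674). The protocadherin Fat1 rose by 0.22 on clone 14011 (adjusted p = 0.011) while its clone 786 was at -0.11 (adjusted p = 0.383), Ctnna1, alpha-catenin, rose by 0.12 on clone 3481 (adjusted p = 0.0455), with its clones 6326 and 7931 at 0.19 and -0.17 (adjusted p = 0.0993 and 0.142). Cdh1, E-cadherin, fell by 0.16 on clone 6597 (adjusted p = 0.0356), and its clone 3775 was at -0.21 (adjusted p = 0.0759).

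In 704-743 d against 169-194 d, 0 of the clones of these 5 lists passed in limma, as did 0% of all clones. The smallest p values in the cadherin list were those of Celsr2, a large cadherin, at -0.10 (adjusted p = 0.716), and Ctnna1 clone 6326 at -0.10 (adjusted p = 0.716). In the filament list they were those of Nefl, a neurofilament, clone 8756 at -0.14 (adjusted p = 0.716) and Lmnb1 clone 8296 at -0.13 (adjusted p = 0.716). The let-7 list gave Hmgn1 at -0.08 (adjusted p = 0.716) and Hmgb2 at -0.14 (adjusted p = 0.716), and the myogenic list Heyl at 0.13 (adjusted p = 0.716) and Mef2d at 0.06 (adjusted p = 0.716). Acta2 stood at 0.33 (adjusted p = 0.716).

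The label of the tissue was checked on the markers that are measured. For skeletal muscle these were 2 of 12, Actn3 and Mylpf, at percentiles 89.5 and 89.1 of their filters. The heart marker Nppb lay at 5.73 and the Schwann cell marker Pmp22 at 5.91. Other markers reached as high: Acta2 lay at 94.2, fibroblast clones between 12.3 and 95.8, and endothelial clones at 5.55 and 82.2. The percentiles thus do not set muscle apart from these cell types. The scores of the muscle markers at the ages compared are given beside those of the other cell types. The mean score of the 2 muscle markers was 1.50 ± 0.074 (SD, n = 5; range 1.395 to 1.585) at 17-21 d and 1.19 ± 0.23 (n = 10; 0.91 to 1.68) at 169-194 d, where 1 of the 2 fell. That of the pericyte and smooth muscle markers (2 of 6 measured, Acta2 and Pdgfrb) was 1.38 ± 0.058 (range 1.295 to 1.45) and 0.93 ± 0.36 (0.27 to 1.32), and 1 of the 2 fell. Endothelial markers (2 of 8, Pecam1 and Cdh5) ran from -0.17 to 0.245 at 17-21 d and from -0.975 to 0.14 at 169-194 d, with 0 called. Fibroblast markers (11 clones of 6 genes) ran from 0.405 to 0.535 and from 0.318 to 0.465, with 1 higher and 1 lower. Pmp22 ran from -1.84 to -1.15 and from -1.91 to -0.99, and Nppb from -1.61 to -1.29 and from -1.73 to -1.09, with neither called. Their part in the results on the 11 clones was not tested.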

How the data were processed

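RNA of skeletal muscle was labelled with 33P and hybridised to filters, per the labels' protocols. The authors deposited 1 score per clone and array, a z-score with mean 0 and SD 1 over the 8448 clones; its log base, background and scaling steps are unstated. Clones were named by the platform annotation of 2016 (9663 clones with 1 symbol, 436 with several, 6797 with none). Clone sequences were not used here. Titles and characteristics gave age and sex. The description of both arrays of male 704-743 d replicate 2 repeats that of a male of 43 d, and title and characteristics were followed. Replicates are separate mice numbered in list order. In the 3 older ages the number equals the stretch of list numbers, defined below, and the stretch was fitted as a block.

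Scores were fitted as deposited with limma 3.58.1 (lmFit, eBayes, two-sided) in R 4.3.3 on the 10 cells of sex by age bin, the sexes weighted equally, with Benjamini-Hochberg adjustment over all clones. The number of arrays limits the precision. Stretches are the 5 runs of 8 list numbers in the titles. Correlations used 100000 permutations of the mice. Alternatives were quantile normalization, median and MAD scaling, leaving out the dimmest 25% of clones, list-number block, array weights, leading component, only the mice compared, additive sex and age, and each mouse left out. Added after seeing the data was the subtraction of clones 22 and 44 numbers away. The limma fit was also run on simulated data with independent noise for each clone. That setting lacks the correlation between clones seen here, so it cannot vouch for the calls under such correlation.

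Members and lists were chosen with earlier results of these data known. Named were all member clones, the 3 most correlated clones of each, and per list up to 3 genes in each direction with the smallest p past the threshold, or the 2 smallest p where none passed.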

Additional observations from a re-analysis of the deposited data

Results flagged for a closer look

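Among 55 groups of a clone and an age bin, 4 held a mouse far from the others by Dixon's test, where chance flags about 1 in 20 groups. At 476-499 d, male replicate 5 was lowest on Igf2bp1 clone 2029 (1.54, next 2.22) and on Igf2bp1 clone 13153 (1.47, next 1.70). This mouse also had the lowest leading component of the 40 mice on both filters (-24.1 and -23.5). Female replicate 3 of the same age was lowest on Igf2bp1 clone 3130 (0.31, next 0.58) and on Igf2bp1 clone 16332 (0.80, next 0.94), and had the highest component (24.5 and 17.3).

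From 476-499 d to 704-743 d, Hmga2 clone 9910 moved in opposite directions in the sexes: each female of the older class lay below the mean of the younger females and each male above that of the younger males. The mean changes were -0.104 in females and 0.152 in males, a difference of -0.256. This difference was not tested by itself; the limma test of a sex difference in the whole age profile gave an adjusted p of 0.928 for this clone.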

How the results depend on the processing

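In 169-194 d against 17-21 d, the count of 4 called clones became 2 with quantile normalization, 7 with median and MAD scaling, 6 with array weights, 5 with only the mice compared, 3 with additive sex and age (Hmga2 9910 lost) and 0 with the leading component, and ranged from 0 to 4 over the fits without 1 mouse. Over all clones the count was 6199 before these changes and 5266 with quantile normalization. It was 5935 with median and MAD scaling, 9585 with array weights, 6708 with additive sex and age and 9 with the component. For only the mice compared no count over all clones is given, so its 5 calls stand without a background share. Among the fits without 1 mouse, that count is given only for those without a male of 17-21 d. With the component the estimates turned for Igf2bp1 2029 (-0.035), 3901 (0.0087) and 13153 (-0.0015), Hmga2 7622 (0.00065), Nes 7446 (0.0097) and Cdh2 10244 (-0.0048). After subtraction of clones 22 and 44 numbers away they turned for Igf2bp1 3130 (-0.10), Hmga2 7622 (0.0072), Nes 7446 (0.16) and Cdh2 14047 (-0.14). The count for any difference among age bins went from 0 to 3 with the list-number block and 5 with array weights, and from 0 to 4 over fits without 1 mouse. The count of positive same-gene correlations past adjustment went from 2 to 5 with median and MAD scaling and 1 with the component, and the count of same-gene differences in change from 0 to 4 over fits without 1 mouse. The cause of these shifts was not tested. The other 7 counts, all 0, stayed at 0 in each alternative run. The list-number block, which in the 3 older ages is also the replicate number, kept the 4 calls in 169-194 d against 17-21 d (4 in both fits). Over all clones 8108 were called with the block, against 6199 without it. The scores hold no background level, so low-scoring clones such as Nes 7446 carry no known limit of detection.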
